A study of Mus musculus with 7 samples.

Results

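The 57 genes described here encode the lysosome and the autophagy machinery, and the data are the open chromatin at and around them in regulatory T cells (Treg cells) with and without Opa1. They were taken in 4 classes by role: 20 luminal hydrolases and their cofactors, 10 lysosomal membrane proteins, 8 genes of the membrane-embedded V0 part of the proton pump with its accessory proteins, and 19 autophagy genes. A peak belonged to a gene that it overlapped, or to the nearest protein-coding gene within 100000 bp. By this rule 175 of the 50213 peaks belonged to the 57 genes, 133 by overlap and 42 by distance, and each gene had at least 1 peak. Distance alone leaves unknown which gene such a site regulates.

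ATAC-seq, in which a transposase cuts open chromatin and the cut DNA is sequenced, was performed on mouse Treg cells sorted from the spleen as CD4+ Foxp3-YFP+ cells that carried CD45.2 and not CD45.1. The Opa1 KO group was 3 chimeric mice that had received bone marrow with Foxp3-Cre and a floxed Opa1 gene (Opa1fl/fl), mixed 1:1 with CD45.1+ marrow. The WT group was 4 chimeras made in the same way with Foxp3-Cre marrow whose Opa1 was not floxed, so the Cre transgene was shared by both groups and its Foxp3 promoter limits deletion to cells that have expressed Foxp3. The sources used here do not give age, sex or host strain. Total counts in peaks were 3384325, 1658436 and 1948041 in the Opa1 KO libraries and ran from 1534394 to 2134586 in the WT libraries. In a chi-square test over 36418 peaks, WT replicates 2 and 3 were not told apart from sampling noise (p = 0.0843), while the same chi-square test gave p = 0.0346 for the 11332 peaks averaging 50 counts or more. WT replicates 2 and 3 were averaged into 1 sample in each mean ± SD, which therefore has n = 3 in both groups. In the main tests, with their SEs and intervals, and in statements on group overlap, they were kept as separate libraries. Which part of Opa1 is deleted is not stated, so the only peak at Opa1, which covers its start, does not check the labels; it had 33.3, 29.1 and 42.6 CPM (normalised read counts) in Opa1 KO and 36.8, 33.8, 37.3 and 37.9 CPM in WT libraries. T cell and Treg marker genes, all 9 of them with a peak, summed to between 1040 and 1050 CPM in Opa1 KO and between 988 and 1060 CPM in WT libraries. B cell markers, with peaks at Pax5 and Ebf1 and none at Cd79a, Cd79b and Ms4a1, summed to between 24.8 and 34.1 CPM in Opa1 KO and between 29.1 and 34.4 CPM in WT libraries. Myeloid markers, with peaks at Cd14, Cebpa, Itgam and Spi1 and none at Csf1r, Lyz2 and Adgre1, summed to between 29.1 and 35.1 CPM in Opa1 KO and between 32.5 and 45.8 CPM in WT libraries. The sums of CD8 T cell, NK cell and erythroid markers lay between 8.09 and 36.1 CPM in Opa1 KO and between 8.12 and 29.8 CPM in WT libraries.

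Opa1 is a mitochondrial inner-membrane GTPase that fuses inner membranes and shapes cristae, and the study, by its labels, deletes it in Treg cells. Lysosomes break down protein, lipid and sugar chains with acid hydrolases that work at the low pH set by the proton pump, and transporters and channels of their membrane release the products. In autophagy a double membrane closes around cytoplasm or organelles, mitochondria included, and fuses with the lysosome. Many of these genes carry in their promoters the CLEAR element, a palindromic E-box bound by the TFEB and TFE3 family of transcription factors, and autophagy is known to be needed for the stability of Treg cells.

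The promoters that lay within open chromatin are shown by 7 examples from all 4 classes, chosen because they carry an E-box inside a peak and belong to genes described below. Each line gives the 150 bases before an annotated transcript start, 5′ to 3′ on the strand of the gene, from the RefSeq promoter table for GRCm38.p6. Capitals mark the E-box CACGTG, extended to 8 capitals where it is part of the CLEAR core TCACGTGA.
Lamp1, chr8:13159011-13159160, plus strand: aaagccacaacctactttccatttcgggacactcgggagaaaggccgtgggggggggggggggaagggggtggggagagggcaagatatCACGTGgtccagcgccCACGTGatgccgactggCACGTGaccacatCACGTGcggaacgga
Mcoln1, chr8:3500369-3500518, plus strand: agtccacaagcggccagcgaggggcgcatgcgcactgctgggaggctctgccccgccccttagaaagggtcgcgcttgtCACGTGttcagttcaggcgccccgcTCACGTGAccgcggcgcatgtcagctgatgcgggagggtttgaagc
Ctsd, chr7:142387828-142387977, minus strand: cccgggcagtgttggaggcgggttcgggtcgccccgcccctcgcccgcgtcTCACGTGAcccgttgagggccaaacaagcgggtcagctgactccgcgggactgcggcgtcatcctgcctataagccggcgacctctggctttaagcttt
Cln3, chr7:126583237-126583386, minus strand: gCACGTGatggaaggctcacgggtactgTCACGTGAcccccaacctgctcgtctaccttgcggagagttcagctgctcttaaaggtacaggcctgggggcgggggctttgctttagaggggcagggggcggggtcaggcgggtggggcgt
Atp6v0b, chr4:117887330-117887479, minus strand: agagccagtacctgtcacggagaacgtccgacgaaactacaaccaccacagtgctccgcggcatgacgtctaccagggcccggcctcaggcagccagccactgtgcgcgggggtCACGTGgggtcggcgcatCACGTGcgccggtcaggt
Atg3, chr16:45158679-45158828, plus strand: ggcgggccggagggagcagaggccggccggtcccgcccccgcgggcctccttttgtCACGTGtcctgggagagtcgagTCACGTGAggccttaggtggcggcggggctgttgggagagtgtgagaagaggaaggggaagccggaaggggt
Atg5, chr10:44268189-44268338, plus strand: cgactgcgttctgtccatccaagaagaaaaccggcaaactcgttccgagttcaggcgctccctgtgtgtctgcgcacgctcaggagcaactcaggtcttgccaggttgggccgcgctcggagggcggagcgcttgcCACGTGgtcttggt

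Lamp1 held 4 copies of the E-box, which began 61, 45, 28 and 15 bases before its start, none of them in the full CLEAR core. Mcoln1, Ctsd, Cln3 and Atg3 held 1 CLEAR core each within the bases shown. The table held promoters of 49 of the 57 genes, each from 250 bases before to 50 bases after a start. The E-box, a palindrome that reads alike on both strands, was present at 17 of these 49 genes (34.7%), against 8.91% of the 17492 genes of the table. The CLEAR core, which always contains the E-box, was present at 8 of the 49 (16.3%), against 1.41% of all genes. The AP-1 motif TGACTCA, searched on both strands, stood at 4 of the 49 (8.16%) and at 5.40% of all. Lysosomal genes were those on which the CLEAR element was defined, so these shares describe the list and are no independent result. A peak touched the promoter window of 45 of the 49 genes (91.8%), against 48.0% of all genes. Among genes with such a peak, the E-box was present at 15 of 45 members (33.3%) and at 11.8% of all. A match is a description of the letters and does not show binding.

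**Figure D1:**
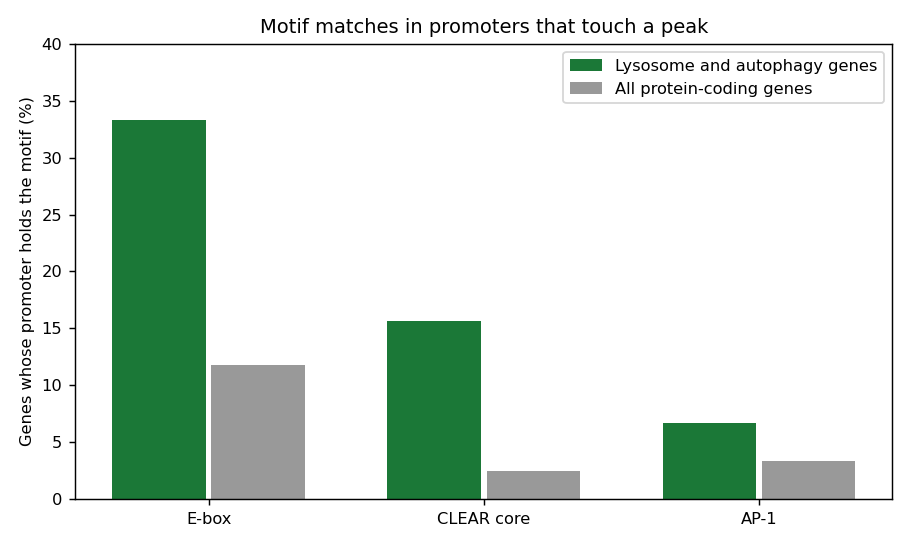
Share of genes, in percent, whose promoter window holds each motif, among genes with a peak that touches the window. Bars show the lysosome and autophagy genes beside all protein-coding genes. The E-box stood at 33.3% of these member genes and 11.8% of all such genes, the CLEAR core at 15.6% and 2.42%.

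Accessibility of the lysosome and autophagy genes passed the test at no peak in either direction. Of their 175 peaks, 151 passed the filter on low counts, and 0 were higher and 0 lower in Opa1 KO than in WT cells (edgeR quasi-likelihood test, Benjamini-Hochberg adjusted p under 0.05). Over all 38041 tested peaks 33 were called, or 0.0867% (0.0473% higher and 0.0394% lower), so a list of 151 peaks with none is near this background. DESeq2 and limma-voom also called 0 member peaks. At an unadjusted p under 0.05, 5 member peaks lay on the higher and 8 on the lower side (8.61%), against 9.47% of all tested peaks (4.74% higher and 4.73% lower). At 7 of the 151 (4.64%) the libraries of the 2 groups did not overlap, 4 higher and 3 lower in Opa1 KO, against 9.36% of all (4.85% higher and 4.51% lower). The median log2 fold change of Opa1 KO over WT was 0.01 over member peaks and 0.00 over all tested peaks, and 78 of 151 (51.7%) were above 0, against 49.8% of all. Their middle 50% ran from -0.23 to 0.21, close to that of all peaks (-0.25 to 0.20). Summed over all member peaks, accessibility was 4159, 4194 and 4180 CPM in the Opa1 KO libraries and 4216, 4177, 4099 and 4044 CPM in the WT libraries, and the groups overlapped.

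With counts summed per gene, 0 of the 57 genes passed the test, while 46 of 13290 genes (0.346%) did over the whole table (edgeR, adjusted p under 0.05). At an unadjusted p under 0.05 stood 4 genes on the higher side, Gabarap, Atp6ap2, Map1lc3b and Atg9a, and 3 on the lower, Atg14, Asah1 and Atg5. These 7 of 57 compare with 11.4% of all genes (5.38% higher and 6.02% lower). The groups did not overlap at 5 genes, against 9.62% of all, and 32 of 57 log2 fold changes were above 0, against 49.9% of all. The 95% interval of the log2 fold change lay within a 2-fold difference either way for 50 of the 57 genes, and within 1.5-fold for 41. The median distance from the estimate to either bound was 0.33 on the log2 scale. Ctsc, the cathepsin that activates granule serine proteases, and Scarb2, the receptor that carries glucocerebrosidase to lysosomes, had narrow intervals, with summed log2 fold changes of 0.04 (95% interval -0.11 to 0.18) and 0.01 (-0.14 to 0.17). The bounds were wider at genes with 1 weak peak, such as Becn1, where they ran from -1.06 to 0.72.

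**Figure D2:**
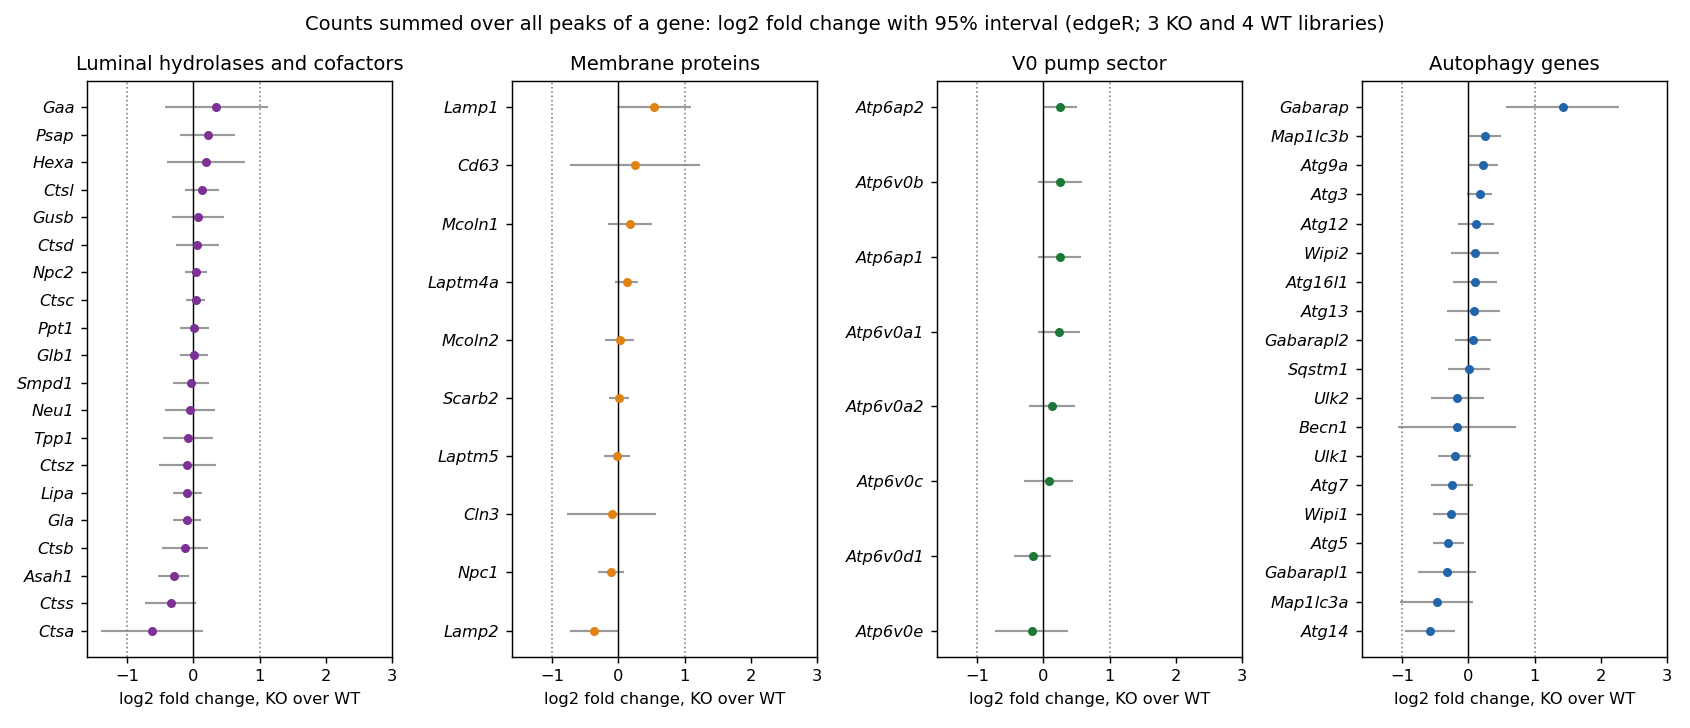
Log2 fold change of Opa1 KO over WT with its 95% interval for counts summed over the peaks of each gene, by class (edgeR). No gene passed the adjusted threshold, and Gabarap (1.42) and Ctsa (-0.62) stand at the ends of the range.

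The genes differed widely in the height of their peaks. The highest peak of a gene is here the one with the highest mean CPM over all libraries, and its CPM per kb of peak ranked the genes, from 305 at Npc2, which binds cholesterol in the lysosome lumen, to 19.7 at Cln3, a membrane protein lost in juvenile Batten disease. Ctsc (290), the lipid scramblase gene Atg9a (267), the cholesterol exporter gene Npc1 (239) and Atg3 (209) followed Npc2. Cd63 (21.1), Becn1 (21.7), Atg7 (24.1) and Gaa (24.8) stood just above Cln3. At 5 of the 57 genes a lower and narrower peak had more CPM per kb than the highest one, such as 34.9 at Atg7, and the others were Atg14, Ctsz, Glb1 and Gusb. The defining lysosome marker Lamp1 was low, at 42.3 CPM per kb and place 41 of 57, while Lamp2 stood at 72.2 and the autophagy receptor gene Sqstm1 at 60.2. The median of these highest peaks was 74.3 CPM per kb. The order says where chromatin was open and not how much RNA was made. Of the 175 peaks, 43 covered a transcript start (24.6%, against 16.9% of all 49299 assignments of a peak to a gene), and at 31 of the 57 genes the highest peak did. In these assignments a peak counts for each gene that it overlaps. Genes without a start in the promoter table held 12.6% of the member peaks and 20.7% of all assignments. Peaks over a start had a median of 68.8 CPM per kb in the list and in all peaks alike. The number of peaks per gene ran from 1, at 15 genes, to 9, at Ctsc and Laptm5. At 12 genes a peak was shared with a neighbour, as at Npc2 with Isca2, Gla with Hnrnph2 and Atg3 with Slc35a5, and could belong to either.

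**Figure D3:**
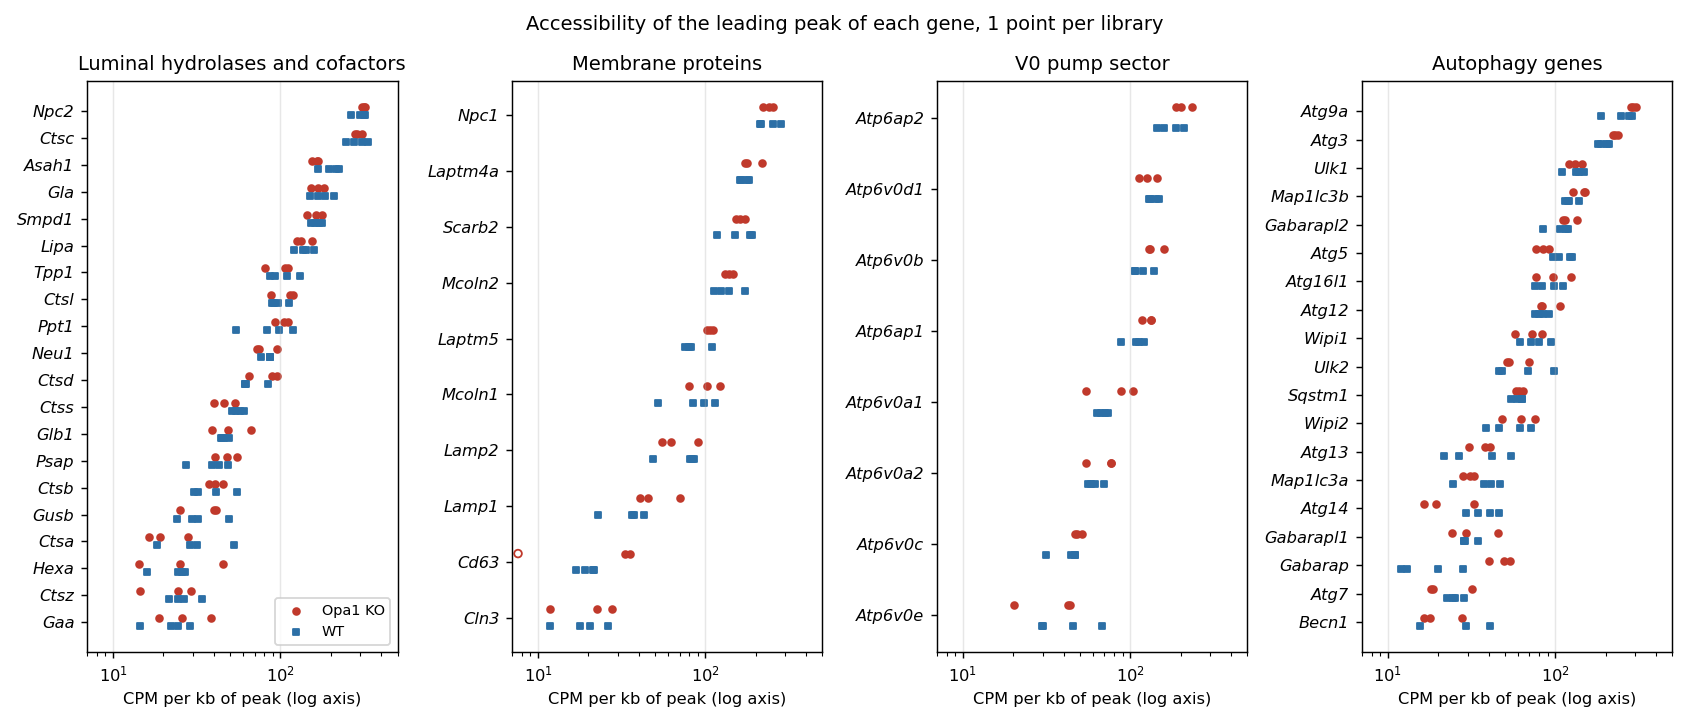
Accessibility of the highest peak of each gene as CPM per kb of peak on a log axis, with the Opa1 KO libraries above the WT libraries and an open circle at the left edge for a library at 0, which was Cd63 in an Opa1 KO library. The genes run from Npc2 (305) to Cln3 (19.7), and the libraries of both groups lie close together at most genes.

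The luminal hydrolases and cofactors had 61 peaks, of which 54 were tested. None was called, and 3 (5.56%, against 9.47% of all tested peaks) had an unadjusted p under 0.05, all on the lower side (4.73% of all tested peaks). The median log2 fold change was 0.00 with 28 of 54 above 0. Those 3 lay at Lipa, Asah1 and Ctsb. The smallest p belonged to a peak inside Lipa, the acid lipase that frees cholesterol and fatty acids (chr19:34510754-34511081). It had 6.78, 3.79 and 6.47 CPM in Opa1 KO libraries and 10.7, 15.6, 10.8 and 11.6 CPM in WT libraries. These values rest on few counts, 22, 6 and 12 in Opa1 KO and 22, 23, 18 and 22 in WT libraries. In CPM all 3 Opa1 KO libraries were below all 4 WT libraries, and the log2 fold change was -1.04 (SE 0.39, edgeR adjusted p = 0.350). The peak over the Lipa start was higher in every library and did not share this difference, with 53.3, 50.6 and 62.0 CPM in Opa1 KO against 56.7, 63.6, 48.2 and 54.8 CPM in WT libraries (log2 fold change -0.01).

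Asah1 encodes the acid ceramidase, which splits ceramide into sphingosine and fatty acid. Its highest peak (chr8:41374417-41374979) had 92.4, 87.2 and 93.8 CPM in Opa1 KO libraries and 109, 94.8, 121 and 125 CPM in WT libraries. Here too the groups did not overlap, though the lowest WT library exceeded the highest Opa1 KO library by little, and the log2 fold change was -0.30 (SE 0.12, edgeR adjusted p = 0.365). At Ctsb, a cysteine cathepsin, a minor peak (chr14:63132173-63132630) averaged 7.97 ± 1.73 CPM in Opa1 KO and 13.2 ± 2.93 CPM in WT cells. Its libraries had 9.86, 7.58 and 6.47 CPM in Opa1 KO and 12.6, 23.0, 9.63 and 10.5 CPM in WT. WT replicates 2 and 3, averaged in that SD, stood far apart here, and the groups overlapped. The log2 fold change was -0.75 (SE 0.35, edgeR adjusted p = 0.499), and without WT replicate 2 it was -0.43. The highest Ctsb peak differed by less than its error (log2 fold change 0.06, SE 0.23).

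At the 3 hydrolase peaks with the highest CPM, those of Npc2, Ctsc and Gla, the differences were smaller than their errors. Npc2 had 175, 174 and 169 CPM at its start in Opa1 KO libraries and 146, 173, 165 and 175 CPM in WT libraries (log2 fold change 0.07, SE 0.09). Ctsc averaged 164 ± 8.15 CPM in Opa1 KO and 164 ± 8.69 CPM in WT cells (log2 fold change 0.00, SE 0.10). Gla, the alpha-galactosidase, averaged 116 ± 11.2 CPM in Opa1 KO and 124 ± 20.8 CPM in WT cells (log2 fold change -0.09, SE 0.11). Of the other enzymes, Ctsd, the main aspartic protease of lysosomes, had 33.0, 24.0 and 35.6 CPM at its highest peak, inside the gene, in Opa1 KO libraries and 22.8, 31.1, 22.9 and 23.2 CPM in WT libraries (log2 fold change 0.33, SE 0.22). Its promoter peak, which holds the CLEAR core shown above, lay on the other side of 0, at 15.5 ± 3.20 CPM in Opa1 KO and 19.0 ± 2.50 CPM in WT cells (log2 fold change -0.32, SE 0.27). Ctsl, another cysteine cathepsin, and Gaa, the glucosidase that degrades lysosomal glycogen, had log2 fold changes of 0.12 (SE 0.15) and 0.35 (SE 0.39) at their start, and the value for Gaa was 0.00 without Opa1 KO replicate 1, 0.19 without WT replicate 3 and 0.55 without Opa1 KO replicate 2. Summed per gene, 1 of the 20 had groups without overlap, against 9.62% of all genes. It was Ctss, an antigen-processing cathepsin, with 28.2 ± 4.13 CPM in Opa1 KO and 35.9 ± 2.61 CPM in WT cells (log2 fold change -0.34, 95% interval -0.72 to 0.04). Ctss was named after its values were seen.

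The lysosomal membrane proteins had 44 peaks, 39 of them tested, with none called. The groups overlapped at each of the 39, while they did not at 9.36% of all tested peaks. Over the 39 the median log2 fold change was 0.01, and 21 were above 0. Lamp1, the most abundant glycoprotein of the lysosomal membrane, had a single peak, over its start and the 4 E-boxes (chr8:13158982-13159378). It had 17.9, 27.8 and 16.2 CPM in Opa1 KO libraries and 14.5, 14.9, 9.03 and 16.9 CPM in WT libraries. Opa1 KO replicate 2 stood above all others and the groups overlapped, with a log2 fold change of 0.54 (95% interval -0.02 to 1.11, edgeR adjusted p = 0.548), and 0.31 without that library. Lamp2, its partner, whose A form is the receptor of chaperone-mediated autophagy, had 19.1, 31.6 and 21.6 CPM at its start in Opa1 KO libraries and 30.0, 28.4, 28.9 and 16.9 CPM in WT libraries (log2 fold change -0.14, SE 0.24). Over its 3 peaks Lamp2 summed to a log2 fold change of -0.37 (95% interval -0.73 to 0.00), so the estimates for Lamp1 and Lamp2 had opposite signs and neither passed the test.

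Npc1 exports cholesterol from lysosomes together with Npc2. Its highest peak had 106, 97.3 and 112 CPM in Opa1 KO libraries and 112, 126, 95.1 and 93.3 CPM in WT libraries, which overlapped throughout (log2 fold change -0.02, SE 0.12). A minor Npc1 peak averaged 8.12 ± 2.13 CPM in Opa1 KO and 13.6 ± 3.44 CPM in WT cells (log2 fold change -0.63, SE 0.35, edgeR adjusted p = 0.575). Mcoln1, the calcium channel of lysosomes, had 19.7, 26.5 and 21.6 CPM over its start and the E-boxes shown above in Opa1 KO libraries and 24.2, 19.0, 18.1 and 19.0 CPM in WT libraries (log2 fold change 0.15, SE 0.25). The highest Mcoln1 peak, 14681 bp from the start, also overlapped the neighbour Pnpla6 and could belong to either gene. It had a log2 fold change of 0.22 (SE 0.22). This value ran from 0.04, without WT replicate 2, to 0.38, with the replicate block. The smallest p of the class was at a weak peak 34028 bp from Laptm5, a lysosomal protein of blood cells that lowers antigen receptor levels (chr4:130878554-130878862). It had 5.55, 1.26 and 1.08 CPM in Opa1 KO libraries and 4.84, 9.48, 8.43 and 6.32 CPM in WT libraries, with overlap through Opa1 KO replicate 1 (log2 fold change -1.24, SE 0.56, edgeR adjusted p = 0.469). Without that library the value was -2.55. The 9 peaks of Laptm5 together averaged 135 ± 2.45 CPM in Opa1 KO and 135 ± 8.44 CPM in WT cells. At Laptm4a and Scarb2, the strongest of the class beside Npc1, the log2 fold changes of the highest peak were 0.14 (SE 0.10) and 0.01 (SE 0.14).

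The V0 pump genes had 18 peaks, 14 of them tested, with 0 called and 1 at an unadjusted p under 0.05 (7.14%, against 9.47% of all tested peaks). Of the 14, 10 were above 0 (71.4%, against 49.8% of all tested peaks), with a median log2 fold change of 0.23, or 0.14 without Opa1 KO replicate 3. Some of the 14 cover a transcript start, and of all tested peaks that do, 58.9% were above 0 (median 0.04). Summed over the class, accessibility was 454.1, 417.1 and 423.9 CPM in Opa1 KO libraries and 384.2, 419.7, 384.8 and 383.6 CPM in WT libraries. WT replicate 2 lay among the Opa1 KO libraries and the other 3 WT libraries below them, so the groups overlapped. The 14 peaks share the same 7 libraries, so these values are a description of the class.

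Both accessory proteins of the pump are encoded on the X chromosome. Atp6ap2, also known as the prorenin receptor, had 111, 88.5 and 96.0 CPM at its start in Opa1 KO libraries and 68.8, 100, 89.1 and 75.9 CPM in WT libraries (chrX:12587453-12587929). The log2 fold change was 0.26 (SE 0.13, edgeR adjusted p = 0.494), and the groups overlapped in WT replicates 2 and 3. Without Opa1 KO replicate 1 it was 0.16. Atp6ap1 had 58.5, 51.8 and 58.2 CPM in Opa1 KO libraries and 53.3, 49.4, 38.5 and 47.4 CPM in WT libraries (log2 fold change 0.26, SE 0.16, adjusted p = 0.638). The X chromosome took 2.30% to 2.40% of the counts in Opa1 KO and 2.29% to 2.36% in WT libraries. Atp6v0b, a subunit of the proton-carrying ring, had 57.9, 48.0 and 47.5 CPM over its start and paired E-boxes in Opa1 KO libraries and 43.6, 39.3, 50.6 and 39.0 CPM in WT libraries (log2 fold change 0.26, SE 0.17, adjusted p = 0.650), with 0.15 without Opa1 KO replicate 1. Atp6v0d1, which joins the ring to the central stalk, was on the other side of 0, with 61.1 ± 7.75 CPM in Opa1 KO and 66.5 ± 3.85 CPM in WT cells (log2 fold change -0.10, SE 0.14). Libraries of the groups were fully separated for 1 pump peak among the 14 tested (7.14%, against 9.36% of all tested peaks). It was a weak site 372 bp beyond the end of Atp6v0a1 (log2 fold change 0.77, SE 0.49, edgeR adjusted p = 0.650). This site was named after its values were seen.

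The autophagy genes had 52 peaks, 44 of them tested, and the widest range of differences. None was called, but 4 on the higher and 4 on the lower side had an unadjusted p under 0.05 (18.2%, against 9.47% of all tested peaks). There was no overlap at 4 of 44 (9.09%, against 9.36% of all). The median log2 fold change was -0.02, with 19 of 44 above 0, and it was -0.10 without WT replicate 4, -0.09 without Opa1 KO replicate 1 and -0.09 with no filter.

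Gabarap, which with the LC3 proteins is attached to lipid of the growing autophagosome, had the smallest p of all member peaks. Its only peak (chr11:69991412-69991654) began just after its start and was weak, with 42, 19 and 18 counts in the Opa1 KO libraries and 6, 10, 8 and 6 counts in the WT libraries. Scaled, these were 12.9, 12.0 and 9.71 CPM in Opa1 KO and 2.91, 6.77, 4.82 and 3.16 CPM in WT libraries. The groups did not overlap, and the log2 fold change was 1.42 (95% interval 0.59 to 2.26), but the adjusted p over all peaks was 0.210 (edgeR). The related Map1lc3b, which encodes LC3B, had 30.2, 28.4 and 25.9 CPM at its start in Opa1 KO libraries and 24.2, 17.6, 24.7 and 14.8 CPM in WT libraries, again without overlap (log2 fold change 0.47, SE 0.23, edgeR adjusted p = 0.519). Its highest peak, outside the gene, averaged 69.2 ± 6.30 CPM in Opa1 KO and 59.5 ± 1.79 CPM in WT cells (log2 fold change 0.21, SE 0.14). Of other members of this family, Gabarapl1 had a log2 fold change of 0.07 (SE 0.35) at its highest peak. Map1lc3a, summed over its peaks, stood on the other side of 0, at -0.47 (95% interval -1.02 to 0.07) without overlap of the groups. The Map1lc3b start peak and Map1lc3a were named after their values were seen.

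No enzyme that attaches Gabarap and LC3 to lipid passed the test. Atg5, part of the complex with Atg12 and Atg16l1, had 41.3, 49.3 and 45.3 CPM over its start and E-box in Opa1 KO libraries and 67.8, 56.9, 52.4 and 65.9 CPM in WT libraries (chr10:44268153-44268691). Every Opa1 KO library was below every WT library, and the log2 fold change was -0.44 (SE 0.16, edgeR adjusted p = 0.314). Atg3, the enzyme that transfers LC3 to lipid, had 126, 129 and 134 CPM over its start in Opa1 KO libraries and 103, 116, 107 and 119 CPM in WT libraries (chr16:45158527-45159097). There every Opa1 KO library was above every WT library, and the log2 fold change was 0.22 (SE 0.11, adjusted p = 0.501). Atg7, the activating enzyme, had a weak internal peak with 2.46, 0 and 5.39 CPM in Opa1 KO libraries and 9.69, 2.71, 8.43 and 10.5 CPM in WT libraries (log2 fold change -1.55, SE 0.58, adjusted p = 0.352). The zero stood in Opa1 KO replicate 2, and WT replicate 2, at 4 counts, overlapped the Opa1 KO range. The highest Atg7 peak by CPM had a log2 fold change of -0.15 (SE 0.34) and the highest per kb -0.47 (SE 0.36), and Atg12 stood at 0.11 (SE 0.14).

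Among genes that start autophagy, too, no peak passed the test. Ulk1, the initiating kinase, had 59.2, 54.3 and 65.3 CPM at its start in Opa1 KO libraries and 67.3, 62.3, 49.4 and 60.1 CPM in WT libraries (log2 fold change -0.01, SE 0.15). A second Ulk1 peak, inside the gene and named after its values were seen, averaged 19.1 ± 7.04 CPM in Opa1 KO and 30.1 ± 10.9 CPM in WT cells (log2 fold change -0.64, SE 0.25, adjusted p = 0.369 in edgeR). Atg9a averaged 122 ± 4.55 CPM in Opa1 KO and 101 ± 20.4 CPM in WT cells (log2 fold change 0.24, SE 0.12, adjusted p = 0.508), with 0.11 without WT replicate 4 and 0.12 with the replicate block. Becn1, a subunit of the lipid kinase complex, was among the weakest, at 6.41 ± 1.94 CPM in Opa1 KO and 7.56 ± 4.41 CPM in WT cells (log2 fold change -0.15, SE 0.47). Its partner Atg14, which brings that complex to the site of autophagosome formation, had the second smallest gene-level p. Summed over its 3 peaks and named after its values were seen, Atg14 had 27.8, 24.6 and 26.8 CPM in Opa1 KO libraries and 46.0, 34.9, 33.2 and 42.9 CPM in WT libraries. The groups did not overlap, and the log2 fold change was -0.57 (95% interval -0.95 to -0.19, edgeR adjusted p = 0.179). Sqstm1, the cargo receptor p62, had 50.8, 53.1 and 56.1 CPM in Opa1 KO libraries and 51.8, 55.5, 55.4 and 47.4 CPM in WT libraries, and its log2 fold change was 0.02 (95% interval -0.29 to 0.33).

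**Figure D4:**
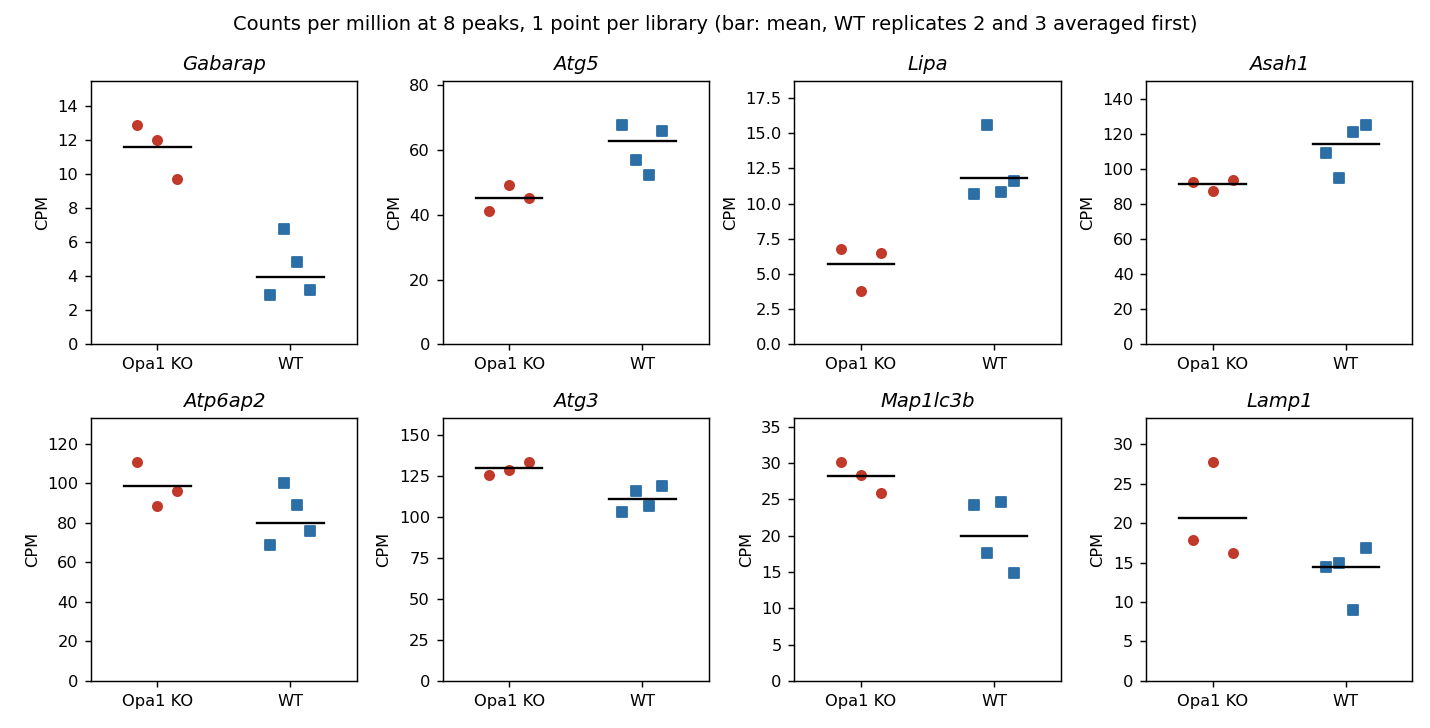
CPM of single peaks in each library, Opa1 KO left and WT right in every panel, with the mean as a bar. The groups stand apart at Gabarap, Atg5, Lipa, Asah1, Atg3 and the Map1lc3b start and overlap at Atp6ap2 and Lamp1, and no peak shown passed the adjusted threshold.

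Promoter peaks with an E-box lay on both sides of 0. Of the 15 member promoter peaks with an E-box, 8 had a log2 fold change above 0, with a median of 0.12 and a range from -0.57 at Cln3 to 0.54 at Lamp1. Of the 30 without, 15 were above 0, with a median of 0.00. With the CLEAR core the median was -0.10 over 7 peaks, 2 of them above 0. Over all promoter peaks of the table, the medians were 0.04 with the E-box (912 peaks, 58.1% above 0) and 0.04 without it (6771 peaks, 58.6%). With the CLEAR core the median over all promoter peaks was 0.06 (189 peaks, 61.4% above 0).

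**Figure D5:**
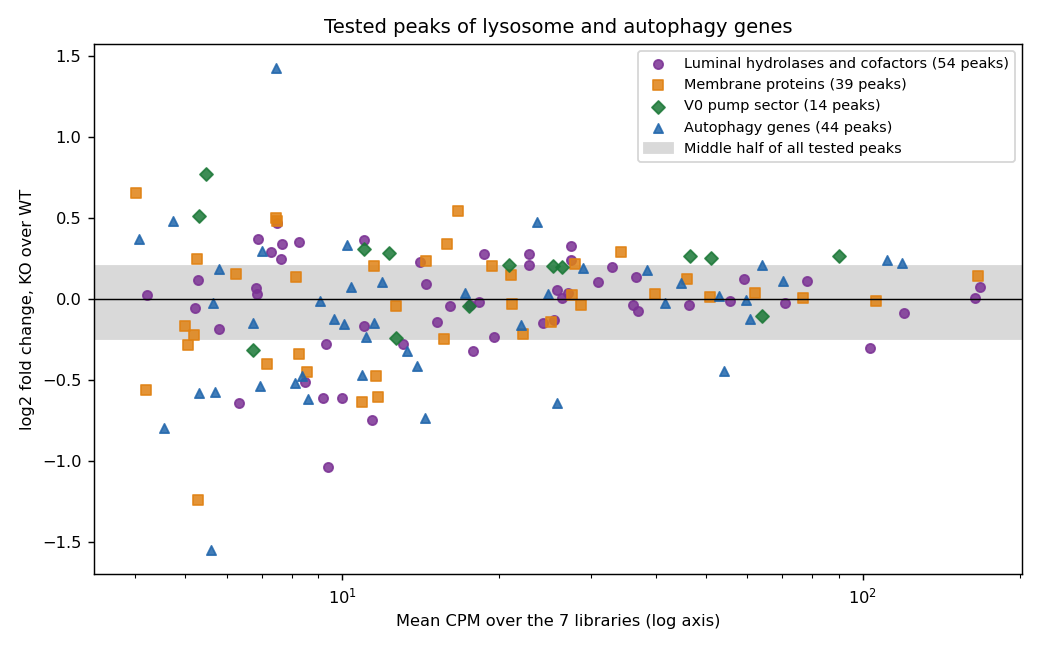
Log2 fold change of Opa1 KO over WT against mean CPM on a log axis for the 151 tested member peaks by class. The grey band is the middle 50% of all tested peaks (-0.25 to 0.20). Differences widen towards low CPM, and the middle 50% of the member peaks ran from -0.23 to 0.21.

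Further genes of the pathway, 129 in 5 lists by role, were read in the same fit. Peaks lay at 122 of them, and of their 327 tested peaks 1 was called higher and 0 lower in Opa1 KO (0.0867% of all tested peaks were called). It lay at Atp6v1d, a stalk subunit of the V1 part of the pump, outside the membrane (chr12:78861426-78862169), with 113, 137 and 139 CPM in Opa1 KO libraries and 94.0, 94.8, 78.3 and 86.4 CPM in WT libraries. This peak rose with no overlap of the groups (0.54 on the log2 scale, SE 0.11; edgeR adjusted p = 0.0154). It was not called without Opa1 KO replicate 2 (adjusted p = 0.0730) or 3 (0.191), or without WT replicate 3 (0.0968) or 4 (0.0695), nor with the replicate block (0.123) or loess offsets (0.0605). At an unadjusted p under 0.05, 14 peaks lay on the higher and 15 on the lower side (8.87%, against 9.47% of all tested peaks). The groups did not overlap at 34 (10.4%, against 9.36% of all). In the other 4 lists no peak was called. The smallest p of the regulators was at a peak 69971 bp from Foxo1, a transcription factor that induces autophagy genes. This peak averaged 65.4 ± 9.22 CPM in Opa1 KO and 48.1 ± 6.39 CPM in WT cells (log2 fold change 0.47, SE 0.15, adjusted p = 0.273 in edgeR). Igf2r, the receptor that sorts new hydrolases to lysosomes, averaged 9.08 ± 2.06 CPM in Opa1 KO and 16.6 ± 0.826 CPM in WT cells (log2 fold change -0.91, SE 0.32, adjusted p = 0.320). The smallest p of the other enzymes was at Manba, the beta-mannosidase (log2 fold change -0.48, SE 0.18, adjusted p = 0.349), and that of the other autophagy genes at Atg10, the enzyme that joins Atg12 to Atg5 (0.30, SE 0.10, adjusted p = 0.303).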

How the data were processed

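The authors deposited whole-number counts per peak for 7 libraries, not normalized. The submitters' processing notes name the build mm10 and, with no order, MACS2 2.1.1, BWA 0.7.16, bedtools 2.25.0, SAMtools 1.9, Trimmomatic 0.36 and Picard 2.9.4. The sources used here do not give settings, peak merging or any shift of reads for the transposase, nor do they say whether starts count from 0 or 1, so peak positions are as deposited. Between 78.0% and 86.3% of counts per library were even, as when both mates are counted. Peaks were assigned with the RefSeq GRCm38.p6 gene table, and 8 members without a start in the promoter table were not searched for motifs.

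All peaks passing filterByExpr (minimum count 10, total 15) were fitted in R 4.3.3 with the robust quasi-likelihood test of edgeR 4.0.16, with genotype as the only term, TMM factors and Benjamini-Hochberg adjustment over all peaks at 0.05. CPM values use the TMM factors. A second fit used counts summed per gene, scaled to their own totals. The common biological coefficient of variation was 0.157. The procedure was also run on simulated counts, drawn independently for each library, and no result given here rests on that run. Alternatives used DESeq2 1.42.0 and limma 3.58.1 (voom), other normalizations, filters and assignments, and each library left out. Medians of single classes under these alternatives were added after the data were seen. Python 3.11.15 with pandas 2.3.3, NumPy 2.4.6, SciPy 1.17.1 and matplotlib 3.10.9 did the rest. Members, lists and tests were chosen with earlier results of these data known. Named peaks were the called ones, per class the 3 genes of smallest p and the 3 with the highest peak, the highest peak of 16 fixed genes, and of each further list the called peak or that of smallest p. The gene fit names its genes at an unadjusted p under 0.05. The labels number WT and Opa1 KO libraries alike from 1, with no statement that a number marks a shared mouse or day.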

Additional observations from a re-analysis of the deposited data

Results flagged for a closer look

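In 4 of 44 groups of 4 WT libraries, 1 library stood apart from the other 3 by more of the range than Dixon's 95% limit. Chance gives about 1 in 20, and groups of 3 Opa1 KO libraries could not be tested this way. At the highest Lamp2 peak WT replicate 4 stood low, at 16.9 CPM, and at the highest Ctsd peak WT replicate 2 stood high, at 31.1 CPM. WT replicate 1 stood high at the highest Gabarapl1 peak, at 11.6 CPM. In the summed CPM of the V0 pump genes WT replicate 2 stood high, at 419.7 CPM, inside the range of the Opa1 KO libraries.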

How the results depend on the processing

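The counts of called member peaks and called member genes were 0 under all 19 alternatives, while calls over all peaks ran from 13 with the replicate block to 82 with counts halved. The median log2 fold change of the member peaks, 0.008, stayed near 0 but changed its sign with the setting: it was -0.024 with counts halved, 0.022 where WT replicates 2 and 3 were added together, -0.011 with loess offsets, -0.020 with total counts only and 0.021 with assignment within 10000 bp, and from -0.018 to 0.031 with single libraries left out. The cause was not tested. With the replicate block it was -0.004. Same-numbered libraries did not deviate together (correlations -0.00843, -0.0322 and 0.00362), and no Opa1 KO library correlated best with its own number, so the numbers were not treated as pairs. By class the median ran from -0.079 to 0.052 for hydrolases, -0.042 to 0.051 for membrane proteins, 0.136 to 0.250 for the V0 pump and -0.104 to 0.012 for autophagy genes. Of 34 named member peaks, 20 kept their sign under each alternative that tested them (13 to 17), and the lowest adjusted p of any was 0.111, at Gabarap, whose adjusted p ran up to 0.473. Depth limited the weak peaks: 24 member peaks with a mean count of at most 10.6 were not tested. Others, such as those at Gabarap, Becn1 and Atg7 and the peak inside Lipa, rest on few counts.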

Other observations

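Some weak peaks at these genes were left out of the tests by the count filter. At 3 of these 24 (12.5%) the groups did not overlap, against 8.54% of the 12172 untested peaks of the table (3.28% higher and 5.27% lower in Opa1 KO). They lay at Ppt1, Npc1 and Atg5, each with lower values in Opa1 KO. The Npc1 peak, next to the minor Npc1 peak described above and chosen after its values were seen, had 0, 1.26 and 0.539 CPM in Opa1 KO libraries and 4.84, 5.42, 3.61 and 9.48 CPM in WT libraries.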
